A study of Bos taurus with 19 samples.

Results

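Endothelial identity genes are the genes by which the cells lining blood vessels are recognised. The 10 genes chosen here as such were PECAM1, CDH5, VWF, CLDN5, ROBO4, EMCN, ESAM, EGFL7, PLVAP and SOX18, and a probe set was taken as a member when the array annotation gave it 1 of these symbols and no other. This gave 14 probe sets for 9 of the genes, of 24127 probe sets and 9156 named genes on the array. ESAM, an adhesion molecule of endothelial tight junctions, was named by none of the annotated probe sets and was not analysed here. Tests were limited to probe sets with a log2 signal above 3 in 50% or more of the follicles of any 1 type, and 11 member probe sets of 8 genes met this.

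RNA of the theca interna, the vascularised inner layer of the ovarian follicle wall, was hybridised to 1-colour Affymetrix bovine arrays, with 1 follicle to an array. The follicles came from non-pregnant Bos taurus heifers at slaughter, without any treatment, and the granulosa cells had been scraped away before the layer was dissected. There were 5 small atretic follicles of 3 to 5 mm, that is, follicles undergoing regression, 4 large healthy follicles of over 9 mm, and 10 small healthy follicles of 3 to 5 mm, of which 5 had rounded and 5 had columnar basal granulosa cells. The sample records give a different RNA kit for the atretic, the large and the small healthy follicles, and 250 ng of RNA for labelling from atretic follicles against 2 to 5 µg from the others, so that kit and follicle type cannot be told apart. The paper describes 1 extraction method for its healthy follicles, and for labelling a single amount of RNA that is below the one in the records. Which source is right was not settled. No source used here says whether any follicles came from the same animal, and the p-values measure the spread between these follicles only. In such bulk tissue, fewer endothelial cells and less RNA of a gene per endothelial cell cannot be told apart.

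Endothelial cells hold to each other at junctions built by VE-cadherin (CDH5), PECAM-1, claudin-5 (CLDN5) and ESAM. They store von Willebrand factor (VWF) for haemostasis, carry the sialomucin endomucin (EMCN) on their luminal face, and in fenestrated capillaries make the diaphragm protein PLVAP. ROBO4 is an endothelial receptor that stabilises vessels, EGFL7 is a protein that endothelial cells secrete into the vessel wall matrix, and SOX18 is a transcription factor of vascular and lymphatic development. The theca interna holds the capillaries nearest to the follicle, since no vessels cross the basal lamina into the granulosa layer, and regression of these capillaries is a known feature of atresia.

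All values here are log2 signals per probe set, on which a difference of 1 is a 2-fold change, and the deposited signals have 1 decimal. Probe sets of 8 of the 9 genes were above the signal limit, which in bulk tissue does not show from which cells the RNA came. PLVAP was the exception, as its 2 probe sets lay at 2.2 to 3.1 and at 2.0 to 2.5 over the 19 arrays. Only large follicle 2, at 3.1, was over the limit of 3, and neither probe set was tested. A second VWF probe set was also not tested, with values of 1.4 to 2.3. The VWF probe set that was tested was near the limit in small healthy follicles, where 5 of 10 arrays were over 3.

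Over the 4 kinds of follicle, the mean was highest in large follicles for 8 of the 11 tested probe sets and highest in atretic follicles for the other 3, which were CLDN5 and both EMCN probe sets. When the 4 groups were put in order of their means for each of the 14 probe sets, neighbouring groups overlapped in range in 42 of 42 pairs. The differences that follow are thus between group means, and none of the members separated neighbouring kinds of follicle array by array. These pairs include probe sets under the signal limit. The same counts over all probe sets were not made, so whether they are particular to the members is not known.

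**Figure D1:**
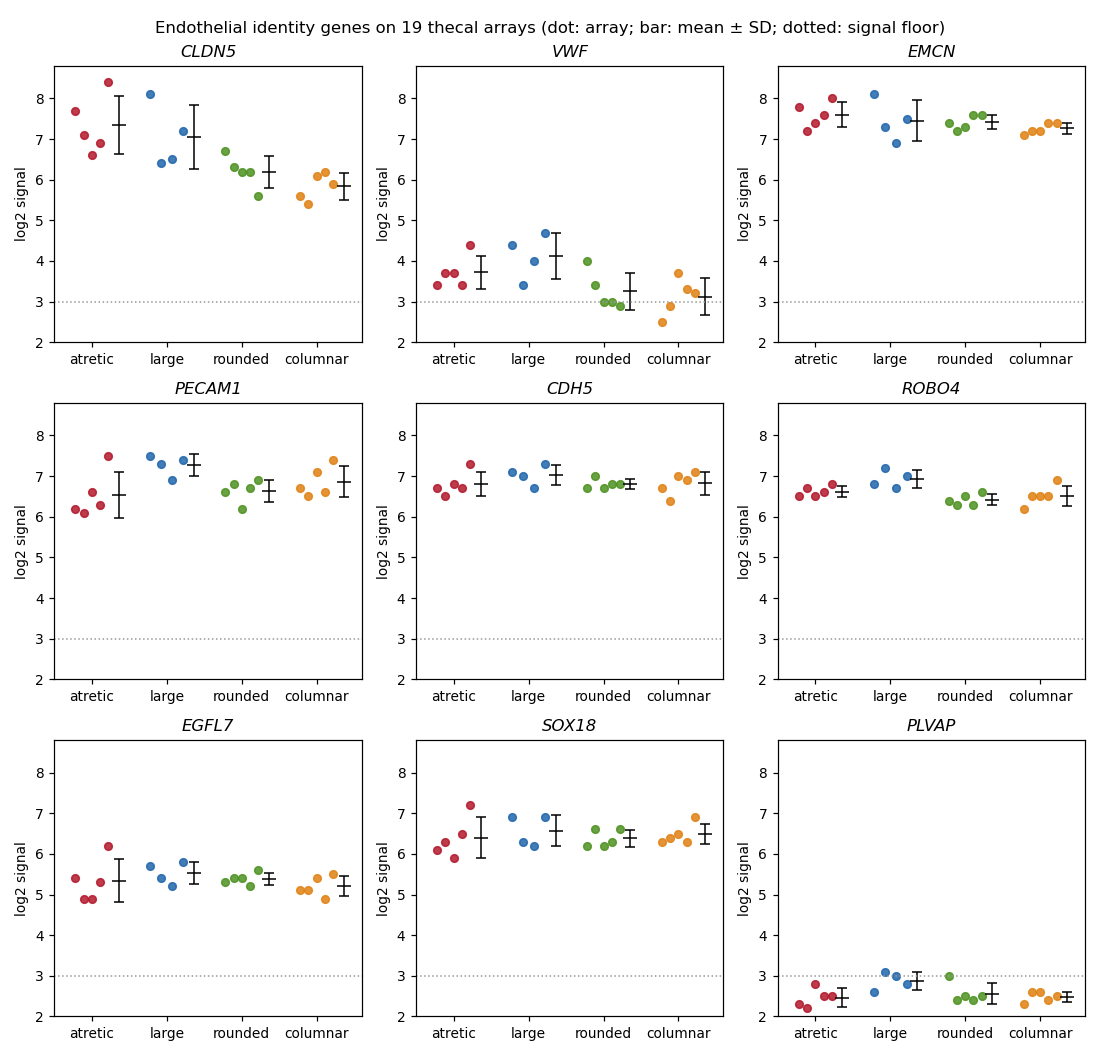
Log2 signal (vertical axis) of the brightest probe set of 9 endothelial identity genes on 19 arrays, by follicle type (horizontal axis), with 1 dot an array, bars for the mean ± SD and a dotted line at the limit of 3. CLDN5 lay at 6.6 to 8.4 in atretic and 5.4 to 6.7 in small healthy follicles, and PLVAP stayed near or under the limit throughout.

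The first comparison was of large against small healthy follicles, which differed in size and, by the sample records, in RNA kit. Of 11 member probe sets, 2 passed at an adjusted p under 0.05 in limma, both higher in large follicles, and 0 passed lower. Over all 15570 tested probe sets 2.59% passed higher and 0.983% passed lower. With the further limit of a 2-fold change, 0 member probe sets were called, against 0.629% of all probe sets called higher. The 11 differences were all positive, with a median of 0.405, while the median over all tested probe sets was -0.005 and 48.8% of them were positive. The members share cells and arrays, so their common sign is not 11 separate observations.

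PECAM1, CDH5 and EMCN each had 2 tested probe sets, told apart here as the brighter and the dimmer by their mean signal over all arrays. Among the junction genes, PECAM1, a homophilic adhesion molecule, passed on its dimmer probe set. The signals were 6.2, 6.3, 5.9 and 6.4 in large follicles, against a lowest value of 4.8, a median of 5.4 and a highest value of 6.2 in small healthy follicles. Large follicles thus lay at the upper end of the small follicles or above it, with 2 of 4 above all 10. The means were 6.2 ± 0.22 in large and 5.47 ± 0.37 in small healthy follicles (SD, n = 4 and 10), a difference of 0.73 with a 95% interval of 0.34 to 1.12 (limma, adjusted p = 0.0427; two-sided exact permutation test, p = 0.003). The brighter PECAM1 probe set gave a difference of 0.525 and did not pass in limma (adjusted p = 0.102).

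CLDN5, the claudin that seals endothelial tight junctions, measured 8.1, 6.4, 6.5 and 7.2 in large follicles. In small healthy follicles its lowest value was 5.4, its median 6.15 and its highest 6.7. Large follicles 1 and 4 stood above all small healthy ones while large follicles 2 and 3 lay within their range. The difference of 1.03 was the largest of the 11 and missed the threshold (means 7.05 ± 0.79 and 6.02 ± 0.39; limma, adjusted p = 0.0546; exact permutation test, p = 0.00699). CDH5, the cadherin of the endothelial adherens junction, differed by 0.215 (brighter, 95% interval -0.05 to 0.48) and 0.405 (dimmer, 0.04 to 0.77), with adjusted p of 0.302 and 0.171 in limma.

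VWF, the platelet-binding protein of the endothelial storage granules, measured 4.4, 3.4, 4.0 and 4.7 in large follicles, against a lowest value of 2.5, a median of 3.1 and a highest value of 4.0 in small healthy ones. As for CLDN5, large follicles 1 and 4 exceeded every small healthy follicle. The difference was 0.935 (4.125 ± 0.56 against 3.19 ± 0.43; limma, adjusted p = 0.0543; exact permutation test, p = 0.00699). EMCN differed least, by 0.11 (brighter, 95% interval -0.24 to 0.46) and 0.035 (dimmer, -0.31 to 0.38).

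The guidance receptor ROBO4 was the other member that passed. It measured 6.8, 7.2, 6.7 and 7.0 in large follicles, and 6.2 at the lowest, 6.5 at the median and 6.9 at the highest in small healthy follicles. The shift was small beside those of CLDN5 and VWF but the large follicles were close to each other, at 6.925 ± 0.22 against 6.47 ± 0.19 (difference 0.455, 95% interval 0.20 to 0.71; limma, adjusted p = 0.0487; exact permutation test, p = 0.004). EGFL7 differed by 0.235 and SOX18 by 0.145, and neither passed (adjusted p = 0.287 and 0.575).

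The calls for PECAM1 and ROBO4 were close to the threshold. With each of the 14 arrays left out in turn, PECAM1 lost its call in 11 fits and ROBO4 in 11, at adjusted p of up to 0.158 and 0.159, both without large follicle 4. Without rounded follicle 1, VWF (1.03, adjusted p = 0.0228) and CLDN5 (1.11, adjusted p = 0.0312) passed as well. Without large follicle 2, VWF (1.18, adjusted p = 0.0329) and CLDN5 (1.25, adjusted p = 0.0454) passed and PECAM1 and ROBO4 did not. Without columnar follicle 5, the brighter PECAM1 probe set passed (0.60, adjusted p = 0.0456). Without large follicle 1, the EMCN differences became -0.11 and -0.17.

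Some markers of other cell types and some array controls also differed between these groups. Over all tested probe sets 2.59% passed higher and 0.983% lower. Of 14 tested pericyte and smooth muscle probe sets, 4 passed higher, those of LMOD1 (0.72), DES (1.245) and MYLK (0.73 and 0.51), and the mean of that list lay at 6.81 to 7.48 in large and 6.19 to 7.05 in small healthy follicles. Fibroblast markers had 3 of 12 higher, the collagen genes COL1A1 (0.765) and COL1A2 (0.395) and the surface antigen THY1 (0.69), with list means of 8.94 to 9.03 in large and 8.48 to 8.89 in small healthy follicles, which did not overlap. Leukocyte markers had 2 of 14 higher, LAPTM5 (0.895) and AIF1 (0.68), with list means of 4.31 to 5.27 in large and 3.53 to 4.64 in small healthy follicles. Of 8 granulosa probe sets NR5A2 was higher (0.895) and AMH lower (-0.66). The NR5A2 mean in small healthy follicles, 2.78, was under the signal limit of 3. The granulosa list means were 6.38 to 8.24 in large and 6.48 to 7.51 in small healthy follicles. Thecal steroidogenic markers had 0 of 7 passing in limma, and 0 with an unadjusted p under 0.05, beside 3798 of all 15570 probe sets. The 15 poly-A control probe sets, for bacterial RNAs added before labelling, averaged 4.68 to 5.20 on arrays of large and 3.61 to 4.09 on arrays of small healthy follicles, without overlap. The part of these in the differences of the members was not tested.

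**Figure D2:**
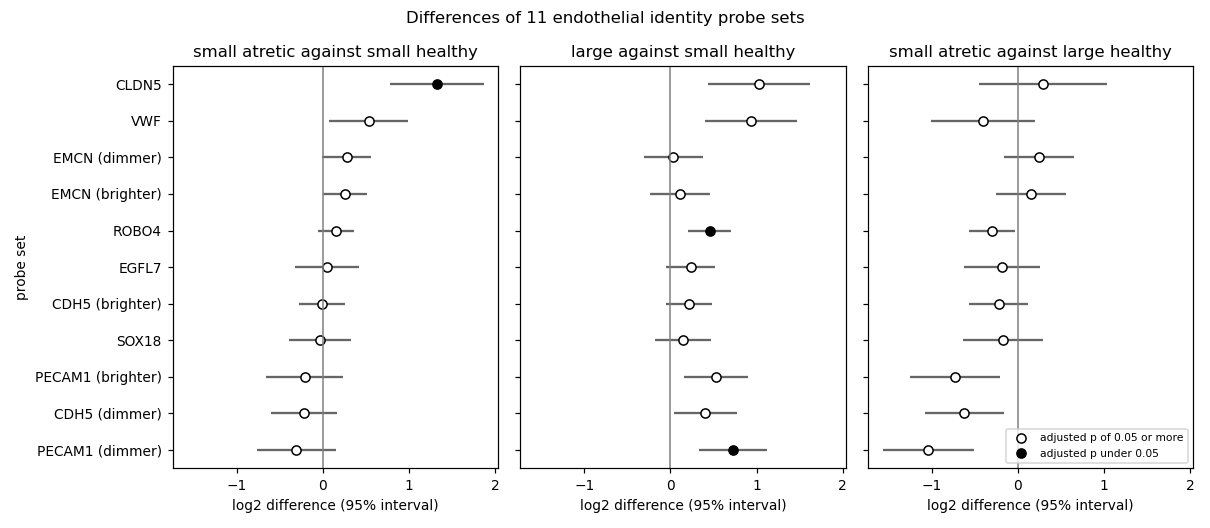
Log2 difference (horizontal axis) with its 95% interval for 11 endothelial identity probe sets in 3 comparisons, where filled dots passed at an adjusted p under 0.05 in limma and dimmer and brighter mark a gene's 2 probe sets. In large against small healthy follicles all 11 lay above 0 and 2 passed. In small atretic against small healthy follicles CLDN5 alone passed, at 1.32.

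The 2 kinds of small healthy follicle were compared next. Between rounded and columnar follicles 0 of 15570 probe sets passed in limma (0%), and 360 had an unadjusted p under 0.05. The members differed by -0.22 to 0.36 with a median of 0.04, beside 0.02 over all probe sets. CLDN5 differed most, with values of 6.7, 6.3, 6.2, 6.2 and 5.6 in rounded and 5.6, 5.4, 6.1, 6.2 and 5.9 in columnar follicles. The ranges overlapped, and the 95% interval of the difference, -0.27 to 0.99, included both no change and a nearly 2-fold one. For PECAM1 the intervals were -0.61 to 0.25 and -0.61 to 0.17.

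Small atretic follicles were set against the same 10 small healthy follicles, so that this comparison and the one on size share their controls. Of 15470 probe sets 16.9% passed higher and 15.1% lower, while 1 of 11 member probe sets passed. This was CLDN5, higher in atretic follicles, and it was also at least 2-fold higher, as were 2.08% of all probe sets. The share of members that passed was below that of all probe sets. The other 10 members divided into 5 positive and 5 negative differences, and the median over the 11 was 0.05, beside 0.01 over all probe sets.

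CLDN5 measured 7.7, 7.1, 6.6, 6.9 and 8.4 in atretic follicles. In small healthy follicles it had 5.4 at the lowest, 6.15 at the median and 6.7 at the highest. Thus 4 of 5 atretic follicles exceeded every small healthy follicle, and the remaining one, atretic follicle 3, was just below the highest of them. The means were 7.34 ± 0.72 and 6.02 ± 0.39 (SD, n = 5 and 10), a 2.50-fold difference (log2 1.32, 95% interval 0.78 to 1.86; limma, adjusted p = 0.00316; two-sided exact permutation test, p = 0.000666, where the smallest possible was 0.000333). The call held in 15 of 15 fits with 1 array left out, at differences of 1.06 to 1.51. Against the 5 rounded follicles alone the difference was 1.14 and did not pass (adjusted p = 0.0750).

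The other junction genes did not pass. The brighter CDH5 probe set measured 6.7, 6.5, 6.8, 6.7 and 7.3 in atretic follicles, against 6.4 at the lowest, 6.8 at the median and 7.1 at the highest in small healthy ones. The ranges overlapped, at a difference of -0.01 with a 95% interval of -0.28 to 0.26, and the dimmer CDH5 probe set gave -0.22 (-0.60 to 0.16). The dimmer PECAM1 probe set measured 4.8, 4.8, 5.1, 5.0 and 6.1 in atretic follicles, against 4.8, 5.4 and 6.2 as the lowest, median and highest small healthy values. Here 4 atretic follicles lay under the small healthy median and atretic follicle 5 near the top. The PECAM1 differences were -0.31 for this probe set and -0.21 for the brighter one (limma, adjusted p = 0.272 and 0.451). Without atretic follicle 5 that of the dimmer probe set was -0.55 and passed (adjusted p = 0.0470).

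CLDN5 and CDH5 are both endothelial junction genes. The signal of the brighter CDH5 probe set was also subtracted from that of CLDN5 on each array, a measure chosen after the values were seen. Its level depends on the probes and has no meaning of its own, but its change between groups shows by how much more CLDN5 differed than CDH5. It was 1.0, 0.6, -0.2, 0.2 and 1.1 in atretic follicles, and -1.2 at the lowest and 0 at the highest in small healthy follicles. The change was 1.33 (0.54 ± 0.55 against -0.79 ± 0.37; two-sided exact permutation test, p = 0.000666), and with each array left out it was 1.19 to 1.52 (p = 0.0005 to 0.002). In large against small healthy follicles it was 0.815 (p = 0.014), and without large follicle 1 it was 0.49 (exact permutation test, p = 0.0734). In atretic against large follicles it was 0.515 (exact permutation test, p = 0.294), and in rounded against columnar follicles 0.38 (p = 0.135). These 4 p-values were not adjusted. Between atretic and small healthy follicles CLDN5 differed by 1.32 and CDH5 by -0.01, so the measure there largely repeats the CLDN5 difference. Its p-values are not separate support for that difference.

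**Figure D3:**
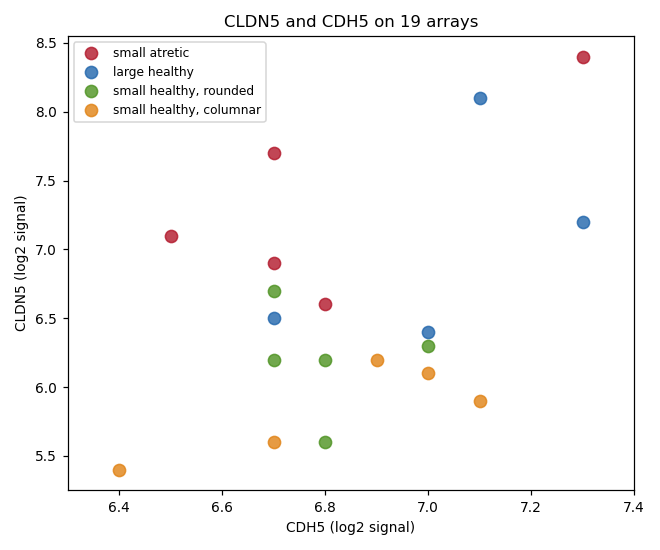
Log2 signal of CLDN5 (vertical axis) against that of CDH5 (horizontal axis), with 1 dot for each of 19 arrays coloured by follicle type. Small atretic follicles lay within the CDH5 range of small healthy ones, apart from 1 at 7.3, and 4 of 5 lay above all small healthy follicles in CLDN5.

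VWF measured 3.4, 3.7, 3.7, 3.4 and 4.4 in atretic follicles, against 2.5, 3.1 and 4.0 as the lowest, median and highest values in small healthy ones. Every atretic follicle was above the small healthy median and 1 of 5 was above the range. Its difference of 0.53 (95% interval 0.08 to 0.98) did not pass (limma, adjusted p = 0.0680; exact permutation test, p = 0.0416), but passed without rounded follicle 1 (0.62, adjusted p = 0.0200). EMCN differed by 0.26 and 0.28 (adjusted p = 0.105 and 0.116), and without atretic follicle 2 both probe sets passed (0.36 and 0.385, adjusted p = 0.0368 and 0.0452). ROBO4 differed by 0.15 (95% interval -0.06 to 0.36), EGFL7 by 0.05 (-0.32 to 0.42) and SOX18 by -0.03 (-0.39 to 0.33). Without atretic follicle 5, EGFL7 differed by -0.165.

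Atretic follicle 5 stood at the upper end of the atretic group. In 11 of 11 tested member probe sets it was the highest of the 5 atretic follicles, alone or in a tie. The same follicle had the lowest mean of the granulosa markers of all 19 arrays, at 5.36, and the lowest mean of the thecal steroidogenic markers, at 6.54. In small healthy follicles these means ran between 6.48 and 7.51 for granulosa and between 7.77 and 9.26 for steroidogenic markers.

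Leukocyte markers rose in atretic follicles in 16 of 16 tested probe sets, beside 16.9% over all probe sets. Of the 16, 10 were also at least 2-fold higher, beside 2.08% over all. The 6 with the smallest p were the monocyte and macrophage genes CD14 (2.24), TYROBP (1.78), CD68 (2.70), CSF1R (0.94) and C1QC (1.47) and the leukocyte lysosomal gene LAPTM5 (1.26), at adjusted p of 0.00171 (CD14) to 0.00285 (C1QC) in limma. A second CD14 probe set (3.72 against 2.46) was over the limit of 3 on atretic arrays only, so the filter fixed its direction. CD2, CD3D, CD3G and FCER1G also had small healthy means under 3, so the count of 16 partly reflects the filter. The mean of the list lay at 4.66 to 5.95 in atretic and 3.53 to 4.64 in small healthy follicles, which did not overlap. PECAM1, which leukocytes and platelets also make, differed by -0.31 and -0.21 in the same comparison. The platelet gene PF4 was 0.91 higher (3.10 ± 0.51 against 2.19 ± 0.11, adjusted p = 0.00187 in limma). Its highest small healthy value was 2.4, so it was tested only because of the atretic arrays, and the filter fixed its direction. TUBB1 was 0.37 lower (difference -0.37, adjusted p = 0.0221 in limma). Both belong to the 3 tested platelet and megakaryocyte probe sets. Globin and other erythroid probe sets were all under the signal limit, with 0 tested. Whether these cells had a part in the CLDN5 difference was not tested.

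Atretic against large follicles completed the order of the 4 groups, in a fit of all 19 arrays which uses the arrays of both earlier comparisons. Of 15722 probe sets 122 passed (0.776%), and 0 of the 11 members did in limma. In 4 of them, both PECAM1 probe sets, 1 of CDH5 and ROBO4, the unadjusted p was under 0.05. Over all 15722 probe sets this held for 2712. The largest difference was that of the dimmer PECAM1 probe set, at -1.04 (5.16 ± 0.54 in atretic and 6.2 ± 0.22 in large follicles, n = 5 and 4; adjusted p = 0.0572; exact permutation test, p = 0.0238). Its atretic values of 4.8, 4.8, 5.1, 5.0 and 6.1 lay below all large follicles in 4 of 5. Without atretic follicle 5 the difference was -1.28 and passed in limma (adjusted p = 0.0202). The brighter PECAM1 probe set differed by -0.735 (adjusted p = 0.148), the dimmer CDH5 probe set by -0.625 (adjusted p = 0.158) and ROBO4 by -0.305 (adjusted p = 0.230). CLDN5 differed by 0.29 with a 95% interval of -0.46 to 1.04. The median over the members was -0.225, beside 0.015 over all probe sets. The poly-A controls averaged 3.79 to 4.33 on atretic and 4.68 to 5.2 on large arrays, without overlap. Their part in these differences was not tested.

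The members were then compared with each other within groups. For 8 genes the brightest probe set was taken, the mean of each of the 4 groups was subtracted, and the 28 pairs were correlated over 19 arrays. All 28 Pearson coefficients were positive, with a median of 0.546 and a range of 0.0105 to 0.862. By permutation within groups, adjusted over the 28 pairs, 10 pairs passed by Pearson's r and 6 by Spearman's rho. It is not known if 1 normalization covered all arrays, and the amount of vessel in each sample was not measured. The part of either in these correlations was not tested.

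The closest pairs were PECAM1 with CDH5 and EGFL7 with SOX18. For PECAM1 and CDH5, Pearson's r was 0.861 (permutation p = 4e-05, adjusted p = 0.00112) and Spearman's rho 0.833 (permutation p = 7e-05), and r was 0.756 without the 2 arrays farthest from the PECAM1 median. For EGFL7 and SOX18, r was 0.862 (permutation p = 0.00082, adjusted p = 0.0115) and rho 0.757 (permutation p = 0.00314), and r was 0.83 without the 2 farthest arrays. CLDN5 was closest to EMCN and VWF by Pearson's r. With EMCN its r was 0.694 (permutation p = 0.0167, adjusted p = 0.0466), and r was 0.425 without the 2 farthest arrays. Its rho with EMCN was 0.574 and did not pass (permutation p = 0.0391, adjusted p = 0.11). With VWF its r was 0.683 (permutation p = 0.00371, adjusted p = 0.0204) and rho 0.703 (permutation p = 0.00256), with an r of 0.622 without the 2 farthest arrays. With ROBO4 its r was 0.0105 and rho -0.041 (permutation p = 0.974 and 0.879), and r was -0.045 without the 2 farthest arrays.

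Set against the mean of the other 7 genes, EGFL7 had an r of 0.826, SOX18 0.819, CDH5 0.815 and PECAM1 0.771. CLDN5 (0.692), EMCN (0.664) and VWF (0.587) followed, and ROBO4 had the lowest, 0.323. Paired probe sets of 1 gene had r of 0.966 for EMCN, 0.953 for PECAM1 and 0.769 for CDH5. In the 10 small healthy arrays alone, without centring, the median over the pairs was 0.281.

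**Figure D4:**
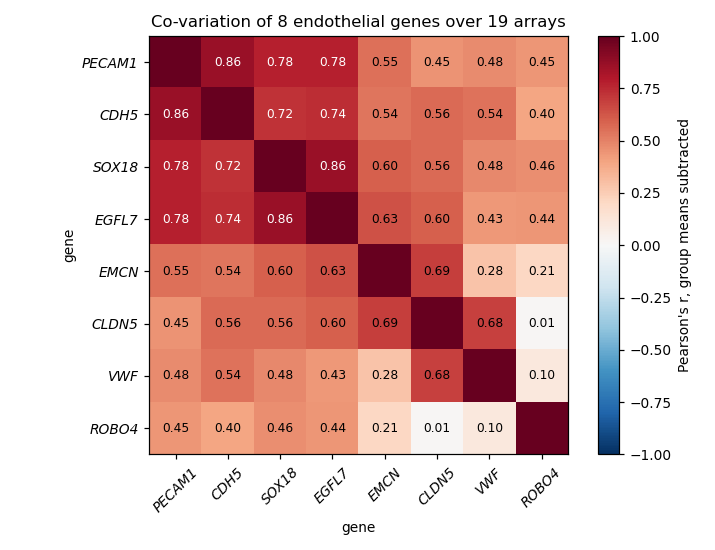
Pearson's r between 8 endothelial identity genes over 19 arrays after subtraction of the group means, with genes on both axes and colour from -1 to 1. PECAM1, CDH5, SOX18 and EGFL7 form the block of highest values, and ROBO4 has the lowest.

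Genes outside the list that followed the members were ranked by their Pearson r with the mean of the 8 members, over the 19 arrays and after subtraction of the group means. Of 7407 named genes, the 10 highest were EPS8 (0.911), ERG (0.909), RASIP1 (0.900), TEK (0.889), ADCY4 (0.877), SWAP70 (0.870), GSTT1 (0.861), F11R (0.852), TIE1 (0.850) and ELMO1 (0.849). ERG is an ETS factor of endothelial cells, TEK and TIE1 are the receptors of the angiopoietin system, and RASIP1 acts in the opening of vessel lumens. The others, among them EPS8 with the highest r, were in none of the marker lists used here. Without the 2 arrays farthest from the centre of the mean, their r was 0.734 (TIE1) to 0.900 (EPS8). The median r was 0.678 for 14 endothelial receptor and signaling genes, 0.598 for 11 endothelial transcription factors and 0.555 for 13 genes of endothelial surface, junction and haemostasis, against -0.0362 for all genes.

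Other cell types were followed to different degrees. The 4 lymphatic genes had a median r of 0.635, the 15 leukocyte genes 0.560, the 12 pericyte and smooth muscle genes 0.438 and the 9 fibroblast genes -0.042. For granulosa markers the median was -0.687 and for thecal steroidogenic markers -0.490, with negative values for 8 of 8 and 7 of 7 genes. These coefficients hold within groups only. Between groups, large follicles had a higher mean of the members than small healthy ones (6.49 ± 0.33 against 6.04 ± 0.17) and also higher means of granulosa (7.19 ± 0.81 against 6.81 ± 0.31) and steroidogenic markers (8.70 ± 0.71 against 8.61 ± 0.52; SD, n = 4 and 10). The mean of the 8 members was 6.05 to 6.98 in atretic, 6.14 to 6.83 in large, 5.94 to 6.16 in rounded and 5.78 to 6.29 in columnar follicles.

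**Figure D5:**
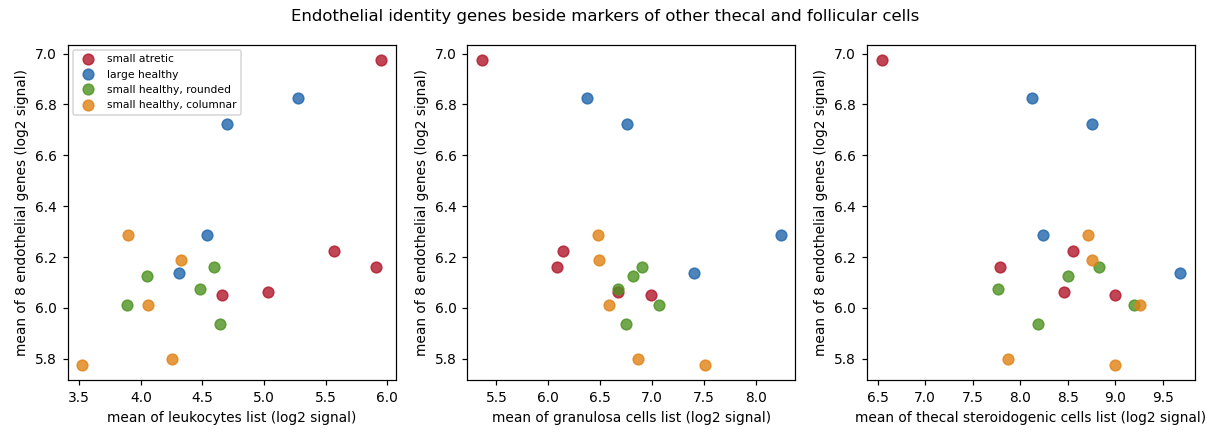
Mean log2 signal of 8 endothelial identity genes (vertical axes) against the mean log2 signal of leukocyte, granulosa and thecal steroidogenic markers (horizontal axes), with 1 dot for each of 19 arrays coloured by follicle type. Atretic follicle 5 has the highest mean of the members, 6.98, and the lowest means of granulosa (5.36) and steroidogenic markers (6.54).

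Further endothelial genes were counted in 3 lists. In large against small healthy follicles 2 of 17 receptor and signaling probe sets passed higher, 0 of 18 of the transcription factors, and 3 of 17 of the surface, junction and haemostasis genes. In any of the 3 lists 0 passed lower, beside 2.59% higher and 0.983% lower over all probe sets. The unadjusted p was under 0.05 for 3 of the 18 transcription factor probe sets and for 3798 of all 15570. PTPRB, the phosphatase that acts on TEK and VE-cadherin, was higher by 1.24 (5.95 ± 0.40 against 4.71 ± 0.36; limma, adjusted p = 0.00642), above all small follicles in 4 of 4 large ones. The Notch ligand DLL4 was higher by 0.38 (adjusted p = 0.0316), the leukocyte adhesion molecule ICAM1 by 0.60 (adjusted p = 0.0148), and caveolin-1 (CAV1) by 1.28 and 0.70 on 2 probe sets (adjusted p = 0.0221 and 0.0363). PTPRB, CAV1 and, among the pericyte and smooth muscle markers, DES are named in the study from these arrays. All calls of this comparison come from the same arrays, so that none is independent evidence.

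In atretic against small healthy follicles 3 of 17 receptor and signaling probe sets passed higher and 4 lower, 5 of 17 transcription factor probe sets higher and 1 lower, and 4 of 16 of the surface, junction and haemostasis list higher and 0 lower. Over all probe sets 16.9% passed higher and 15.1% lower, and the receptor and signaling counts were near these shares. The apelin receptor APLNR fell by 1.69 and 1.07 on its 2 probe sets (differences -1.69 and -1.07; limma, adjusted p = 0.00187 and 0.00139). Its brighter probe set averaged 4.00 ± 0.74 in atretic and 5.69 ± 0.48 in small healthy follicles, with 4 of 5 atretic follicles below all healthy ones. FLT1, a receptor of vascular endothelial growth factor (difference -0.40, adjusted p = 0.0331), and S1PR1, the sphingosine-1-phosphate receptor (-0.40, adjusted p = 0.0169), were also lower. DLL4 (0.53, adjusted p = 0.0109) and ADGRL4 (0.49, adjusted p = 0.0152) were higher. The third higher gene, PTPRB (0.57, adjusted p = 0.0438), was not among the 6 probe sets with the smallest p and is named after its value was seen.

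Among the transcription factors, HHEX, a homeobox factor of haematopoietic and endothelial cells, was higher by 0.74 in 5 of 5 atretic follicles above all healthy ones (adjusted p = 0.00155), followed by the hypoxia factor EPAS1 (0.51, adjusted p = 0.0112). NR2F2, a nuclear receptor of venous endothelium and of stroma (0.31, adjusted p = 0.0427), FLI1 (0.39, adjusted p = 0.0455) and ETS2 (0.38, adjusted p = 0.0479) were also higher. EPAS1, NR2F2 and ETS2 each passed on 1 of several probe sets. ETS1 was lower only on its dimmest probe set (-0.60, adjusted p = 0.0182), at means of 2.36 in atretic and 2.96 in small healthy follicles. The highest atretic value was 2.5, so this probe set was tested only through small healthy arrays, where it was higher. The brighter ETS1 probe sets did not pass. These factors are all also found outside the endothelium, in leukocytes or in stroma.

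In the surface, junction and haemostasis list ANGPT2, the angiopoietin that loosens vessels, was higher by 1.5 (7.0 ± 0.20 against 5.50 ± 0.89; limma, adjusted p = 0.00917), and 0 of 5 atretic follicles exceeded the highest small healthy one. PROCR (0.71, adjusted p = 0.0258), ICAM1 (0.58, adjusted p = 0.00632) and PLAT (0.37, adjusted p = 0.0207) were the others. In the lymphatic list PDPN was higher by 1.11 in 5 of 5 atretic follicles above all healthy ones (adjusted p = 0.00286), 1 of 5 probe sets. Of 14 pericyte and smooth muscle probe sets 5 were higher, those of MYLK (0.65 and 0.35, adjusted p = 0.00936 and 0.0218), LMOD1 (0.47, adjusted p = 0.0154), MYH11 (1.12, adjusted p = 0.0167) and DES (0.76, adjusted p = 0.0288). The lower ones were CSPG4 (-0.33, adjusted p = 0.0114) and MCAM (-0.65, adjusted p = 0.0330). MCAM ranked below the 6 smallest p of its list and is named after its value was seen.

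Of the remaining lists in this comparison, 1 of 12 fibroblast probe sets was higher, PDGFRA (0.81, adjusted p = 0.0123). Granulosa markers had 2 of 6 lower, INHBA (-1.47, adjusted p = 0.00962) and AMH (-0.97, adjusted p = 0.0187), and thecal steroidogenic markers 1 of 7 lower, CYP11A1 (-1.31, adjusted p = 0.00529). In atretic against large follicles 3 probe sets of all the lists passed in limma, while 0.776% of all 15722 probe sets passed. They were CAV1 (-1.65, adjusted p = 0.0260), 1 of 17 tested in its list, CD68 (2.435, adjusted p = 0.0429), 1 of 16, and CSPG4 (-0.505, adjusted p = 0.0435), 1 of 14. No other list had a passing probe set.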

How the data were processed

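The authors summarised single-channel Affymetrix arrays by RMA with quantile normalization in Partek, for which the submitters' processing notes give version 6.5. The deposited values are log2 signals for each probe set with 1 decimal. The genome build and whether the 19 arrays were normalized together are not given in the sources used here, nor is a scan or extraction batch. Probe sets were named from the platform annotation, where 13317 of 24127 have 1 gene symbol, 86 several and 10724 none, and 13282 of the single symbols were found in a newer gene table, with 0 changed.

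Groups were compared with limma 3.58.1 (R 4.3.3), and p-values were adjusted by Benjamini-Hochberg over every probe set above the signal limit (3, in 50% or more of the follicles of any 1 type), without 111 controls. Large or atretic follicles were compared with both kinds of small healthy follicle as 1 group, rounded with columnar in a fit of 14 arrays, and atretic with large in a fit of 19. Exact permutation tests, two-sided, covered 1001, 252, 3003 and 126 splits, with smallest p of 0.000999, 0.00794, 0.000333 and 0.00794. Fits were tested on simulated data. The members and marker lists were chosen with earlier results of these data known. Genes of other lists are named when they passed, at most 6 probe sets with the smallest p in a list and comparison, and the genes most like the members by the 10 highest correlations. The alternatives were other filters, a second quantile normalization, no moderation, a replicate block, 1 kind of small follicle as control, other samples in the fit, and arrays left out. The number of arrays limits the precision.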

Additional observations from a re-analysis of the deposited data

Results flagged for a closer look

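The dimmer PECAM1 probe set measured 6.1 in atretic follicle 5 and 4.8 to 5.1 in the other 4 atretic follicles. The gap was 0.769 of the range of the group, above the limit of 0.71 for 5 arrays. Of 44 groups of member values examined in this way 1 stood out, and chance alone marks about 1 group in 20. Whether the tissue of this follicle differed in composition was not tested. Its granulosa marker mean of 5.36 and its steroidogenic marker mean of 6.54 were the lowest of the 19 arrays.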

How the results depend on the processing

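In large against small healthy follicles, where 557 probe sets and 2 member probe sets passed, the counts were 339 and 0 without moderation, 18 and 0 against rounded and 258 and 0 against columnar follicles alone, and 159 and 1 without large follicle 2 and columnar follicle 1, which held the most granulosa signal of their groups (chosen after seeing the data). After a second quantile normalization 0 members passed. Leaving out 1 array gave 154 to 982 probe sets and 0 to 4 members. The replicate numbers were not shown to pair the follicles: same-numbered arrays correlated at -0.299 to 0.480 in this comparison, and 1 of 8 correlated best with its own number. With the replicate number as a block 341 probe sets passed.

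In small atretic against small healthy follicles, where 4939 probe sets and 1 member passed, the counts were 244 and 0 against rounded follicles alone, and 1822 probe sets passed without atretic follicle 5 and columnar follicle 1 (chosen after seeing the data). Leaving out 1 array gave 2978 to 5690 probe sets and 1 to 3 members. In small atretic against large follicles, where 122 probe sets and 0 members passed, 17 probe sets passed without moderation, 0 in a fit of the 9 arrays alone and 8 without atretic follicle 5 and large follicle 2. Leaving out 1 array gave 2 to 536 probe sets and 0 to 1 members. With the replicate block 2 members passed, both PECAM1 (-1.20 and -0.88, adjusted p = 0.0152 and 0.0488). Between rounded and columnar follicles 0 passed under every alternative run. The median r over the pairs was 0.281 in the 10 small healthy arrays alone.

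Signs changed only in differences that did not pass. Against rounded follicles alone these were EMCN in large follicles (-0.065) and EGFL7 (-0.04) and SOX18 (0.02) in atretic follicles. Without atretic follicle 5 and columnar follicle 1, EGFL7 differed by -0.19 between atretic and small healthy follicles, and without atretic follicle 5 and large follicle 2, CLDN5 differed by -0.19 between atretic and large follicles. With 1 array left out, the EMCN differences between large and small healthy follicles were -0.11 to 0.29 and -0.17 to 0.16. Between atretic and small healthy follicles those of EGFL7 were -0.165 to 0.16, of the brighter CDH5 probe set -0.135 to 0.065 and of SOX18 -0.23 to 0.095, and between atretic and large follicles those of the brighter EMCN probe set were -0.033 to 0.37. Between rounded and columnar follicles they were -0.045 to 0.285 for VWF, -0.125 to 0.05 and -0.085 to 0.175 for CDH5 and -0.155 to 0.005 for SOX18. The cause was not tested in any of these.

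Signals rounded to 1 decimal and groups of 4 and 5 follicles limit what can be seen: over all probe sets the 95% interval reached a median of 0.27 to either side in large against small healthy follicles and 0.24 in atretic against small healthy ones. VWF, PLVAP and the dimmer CDH5 probe set (2.9 to 4.3 over the 19 arrays) lay near or under the signal limit of 3, where differences are compressed.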
